A study of Mus musculus with 24 samples.

Results

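Kupffer cells, the resident macrophages of the liver, were followed through the RNA of 10 marker genes in whole liver: C1qa, C1qb, C1qc, Folr2, Adgre1, Csf1r, Vsig4, Timd4, Marco and Cd5l. Each was the row of the count table that carried its symbol, so the members were 10 of 22355 genes in the table, and all 10 were among the 11508 genes tested. Livers came from 24 diet-induced obese mice dosed for 4 d with IUB288, which activates the glucagon receptor and is known by a code name, or with vehicle. The groups were IUB288 with livers taken 4 h after the last injection, IUB288 with livers taken 22 h after it, and vehicle with livers taken 22 h after it, with 8 mice in each. The labels gave no strain, sex or age. The IUB288 4 h group differs from vehicle both in the drug and in the time since injection, and the effects of these cannot be told apart. Both comparisons with vehicle share the same 8 vehicle livers.

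Kupffer cells sit in the liver sinusoids, where they clear particles, dying cells and old red cells from the blood. They depend on signalling through the receptor encoded by Csf1r, and resident cells carry the surface proteins encoded by Adgre1, Folr2, Vsig4, Timd4 and Marco. The C1q chains, which assemble into the recognition unit of the classical complement pathway, are made largely by macrophages, and Cd5l encodes a protein that macrophages secrete. In mouse macrophages PU.1, the transcription factor encoded by Spi1, acts at macrophage genes broadly. Levels in whole liver sum over all cells, so fewer macrophages and less of an RNA per macrophage cannot be told apart.

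The 3 C1q genes lie side by side on chromosome 4 within 18719 bases (GRCm38.p6, RefSeq): C1qb at chr4:136880126-136886200, C1qc at chr4:136889801-136892936 and C1qa at chr4:136895916-136898844. RefSeq promoter entries matched 7 of the 10 members, and none matched C1qa, Adgre1 or Csf1r. The 250 bases before the start of each RefSeq entry, which for C1qc and Timd4 lies slightly inside the gene's span, are shown for C1qb and C1qc, whose RNAs moved together, for Timd4 and Marco, which varied most between livers, and for Cd5l, the member with the most RNA. Capitals mark matches on either strand to the motif parts GAGGAA and GGAAGT, which overlap in the PU.1 motif GAGGAAGT.
C1qb (chr4:136886201-136886450, minus strand): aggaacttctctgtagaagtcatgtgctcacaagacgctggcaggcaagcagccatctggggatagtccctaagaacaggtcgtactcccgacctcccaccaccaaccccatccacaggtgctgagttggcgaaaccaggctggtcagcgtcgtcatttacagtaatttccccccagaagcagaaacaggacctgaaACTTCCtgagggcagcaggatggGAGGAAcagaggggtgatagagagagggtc
C1qc (chr4:136892915-136893164, minus strand): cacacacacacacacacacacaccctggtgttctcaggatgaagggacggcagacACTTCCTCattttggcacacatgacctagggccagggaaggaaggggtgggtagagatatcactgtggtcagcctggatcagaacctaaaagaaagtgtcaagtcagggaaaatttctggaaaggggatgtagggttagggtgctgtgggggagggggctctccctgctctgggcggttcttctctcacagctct
Timd4 (chr11:46810549-46810798, plus strand): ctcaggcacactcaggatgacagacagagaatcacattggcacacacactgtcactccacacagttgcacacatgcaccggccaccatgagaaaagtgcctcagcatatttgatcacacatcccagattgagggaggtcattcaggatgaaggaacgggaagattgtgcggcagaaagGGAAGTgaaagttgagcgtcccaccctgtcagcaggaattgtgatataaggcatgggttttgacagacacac
Marco (chr1:120505025-120505274, minus strand): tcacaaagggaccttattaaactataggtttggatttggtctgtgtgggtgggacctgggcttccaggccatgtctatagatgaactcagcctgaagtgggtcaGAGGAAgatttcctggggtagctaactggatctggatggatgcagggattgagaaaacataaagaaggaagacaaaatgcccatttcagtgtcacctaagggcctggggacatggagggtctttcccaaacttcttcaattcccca
Cd5l (chr3:87357631-87357880, plus strand): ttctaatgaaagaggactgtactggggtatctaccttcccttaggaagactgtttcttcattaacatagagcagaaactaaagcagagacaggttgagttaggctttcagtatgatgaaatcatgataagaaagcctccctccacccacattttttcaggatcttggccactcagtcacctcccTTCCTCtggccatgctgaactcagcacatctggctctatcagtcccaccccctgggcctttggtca

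Among 32851 promoter windows of the same length, 23.3% held GAGGAA, 19.7% held GGAAGT and 2.44% held the whole GAGGAAGT, each counted on both strands. The C1qc window held the whole PU.1 motif on the reverse strand, 195 bases before the start, where it reads ACTTCCTC. The C1qb window held both PU.1 parts separately, GAGGAA 30 bases and GGAAGT, on the reverse strand, 53 bases before the start. Timd4 held GGAAGT alone, and Marco and Cd5l held GAGGAA alone, in Cd5l on the reverse strand. At least 1 of the parts was present in 7 of 8 member windows, against 36.7% of all windows, and the exception was 1 of the 2 windows of Folr2. These are matches of letters and not measured binding.

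Per kilobase of exon, Cd5l RNA was the highest of the members in 23 of 24 livers. Its mean was 55.6 ± 14.4 CPM (counts scaled to library size) per kilobase at 4 h, 46.4 ± 25.3 at 22 h and 83.0 ± 43.4 in vehicle (SD, n = 8 each). Library sizes behind CPM were scaled by the trimmed mean of M values (TMM). The C1q chains came next, between 24.6 and 27.2 CPM per kilobase at 4 h, between 20.2 and 24.2 at 22 h and between 35.7 and 41.9 in vehicle. Their order among themselves lay within the spread between livers. Timd4 had the lowest level per kilobase in 19 of 24 livers, with 2.07 ± 1.43 CPM per kilobase at 4 h, 1.98 ± 2.24 at 22 h and 3.80 ± 4.95 in vehicle (SD, n = 8 each).

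Library totals were 24.7 to 35.2 M counts at 4 h, 25.8 to 35.2 M at 22 h and 13.99 to 44.1 M in vehicle. Of the libraries that stood apart, vehicle replicate 1 held 1388 CPM of Ucp1, the brown fat uncoupling protein, whereas the other 23 livers had 0.576 CPM or less, and also more RNA of neutrophil, lymphocyte and cytokine genes. In 22 h replicates 6 and 7 the summed RNA of 13 endothelial markers was 251 and 245 CPM, against 375 to 576 CPM in the other 6 livers of that group, and that of 12 stellate cell and fibroblast markers was 273 and 266 CPM, against 482 to 757 CPM. Member results are therefore given with all 24 libraries and also without these 3. The sample descriptions number the mice 1 to 12 for replicates 1 to 4 and 13 to 24 for replicates 5 to 8, and whether this marks a batch is not stated, so results are also given within each set of mice.

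**Figure D1:**
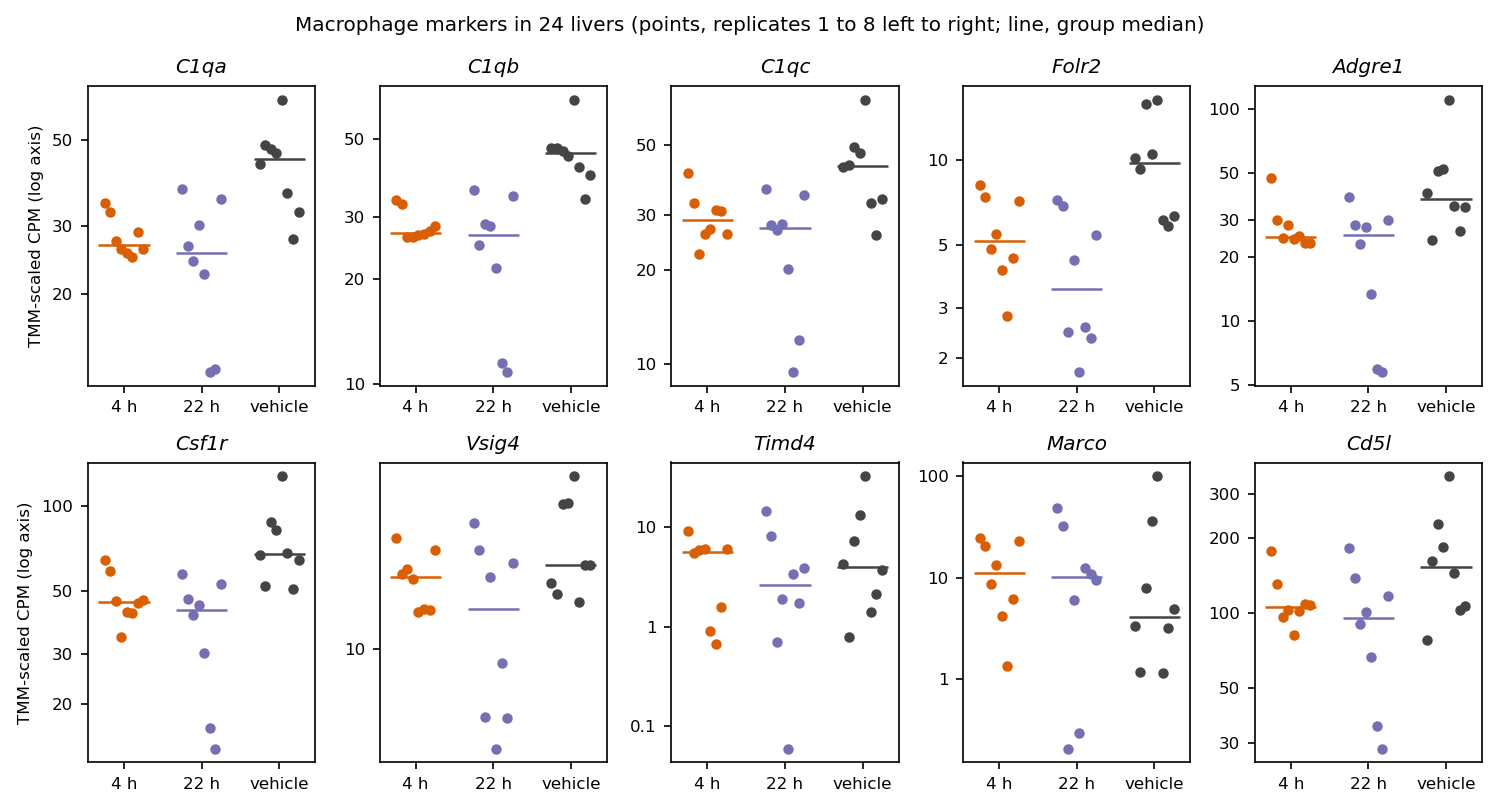
TMM-scaled CPM (log axes, each with its own range) of the 10 markers in livers at 4 h, at 22 h and in vehicle, 8 points per group in the order of the replicate number and a line at the group median. All 8 points of C1qb at 4 h lie below all 8 vehicle points, the sixth and seventh points at 22 h are the lowest of the C1q chains, Adgre1, Csf1r and Cd5l, and Marco spans 0.205 to 99.8 CPM.

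RNA of the complement chains was lower in IUB288 livers. C1qb ranged from 26.2 to 33.6 CPM at 4 h (median 27.0), from 10.8 to 35.7 CPM at 22 h (median 26.6) and from 33.6 to 64.8 CPM in vehicle (median 45.6). All 8 livers at 4 h lay below the lowest vehicle liver, by little in the highest of them, and 6 of 8 did at 22 h. The log2 fold change of C1qb against vehicle was -0.68 ± 0.18 at 4 h and -1.02 ± 0.19 at 22 h (SE), with adjusted p = 0.00342 and 0.00016 by limma-voom. C1qa ranged from 24.9 to 34.4 CPM at 4 h, from 12.5 to 37.3 CPM at 22 h and from 27.7 to 63.6 CPM in vehicle. The groups overlapped for C1qa, and 5 of 8 livers lay below the lowest vehicle liver at 4 h and again 5 of 8 at 22 h. C1qa fell by 0.61 on the log2 scale at 4 h (adjusted p = 0.0094, limma-voom) and by 0.87 at 22 h (adjusted p = 0.000889). C1qc ranged from 22.5 to 40.7 CPM at 4 h, from 9.44 to 36.2 CPM at 22 h and from 25.8 to 69.7 CPM in vehicle. Its change passed the test at 22 h, with a log2 fold change of -0.93 ± 0.23 (adjusted p = 0.00236, limma-voom). At 4 h it was -0.52 ± 0.22 (adjusted p = 0.0527), just short of the threshold of 0.05.

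The ratios between the chains varied little from liver to liver. Counts of C1qb per count of C1qa ran from 0.846 to 1.22 over the 24 livers, and those of C1qc from 0.754 to 1.25. Over the same livers the C1qa level itself spanned 5.08-fold. The 3 chains were lowest in 22 h replicates 6 and 7, where they summed to 33.4 and 35.5 CPM, against 63.98 to 109 CPM in the other 6 livers of that group. Without those libraries and vehicle replicate 1, all 3 chains passed the test in both comparisons with vehicle. Their log2 fold changes were then -0.52 to -0.67 at 4 h and -0.58 to -0.68 at 22 h.

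Of the receptors, Csf1r, the growth factor receptor on which macrophages depend, ranged from 34.4 to 64.7 CPM at 4 h (median 45.7), from 13.8 to 57.4 CPM at 22 h (median 42.8) and from 50.7 to 128 CPM in vehicle (median 67.7). In each IUB288 group 6 of 8 livers lay below the lowest vehicle liver. Its log2 fold change was -0.63 ± 0.24 at 4 h and -1.09 ± 0.24 at 22 h (SE), with adjusted p = 0.0324 and 0.00114 by limma-voom. The 4 h call of Csf1r was lost when any 1 of 4 h replicates 4, 5 or 6 or vehicle replicates 3, 4 or 5 was left out, with adjusted p up to 0.0798.

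Folr2 encodes folate receptor beta, carried by resident macrophages. Its level ranged from 2.80 to 8.14 CPM at 4 h, from 1.78 to 7.23 CPM at 22 h and from 5.84 to 16.4 CPM in vehicle. Livers below the lowest vehicle liver numbered 5 of 8 at 4 h and 6 of 8 at 22 h. Folr2 fell by 0.87 on the log2 scale at 4 h (adjusted p = 0.0127, limma-voom) and by 1.40 at 22 h (adjusted p = 0.00075). Adgre1, which encodes the macrophage surface protein F4/80, ranged from 23.3 to 47.4 CPM at 4 h, from 5.75 to 38.4 CPM at 22 h and from 24.2 to 111 CPM in vehicle. It was lower at 22 h, with a log2 fold change of -1.26 ± 0.35 (adjusted p = 0.00595, limma-voom), while the 4 h value of -0.62 ± 0.32 missed the threshold (adjusted p = 0.121).

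Vsig4 encodes a complement receptor that binds fragments of C3. It ranged from 15.7 to 38.0 CPM at 4 h (median 23.9), from 2.99 to 45.4 CPM at 22 h (median 16.2) and from 17.7 to 80.3 CPM in vehicle (median 27.4). The groups overlapped, and 4 of 8 livers at 22 h lay below the lowest vehicle liver. Its log2 fold change was -1.46 ± 0.47 at 22 h (adjusted p = 0.0179, limma-voom) and -0.53 ± 0.42 at 4 h (adjusted p = 0.311). Leaving out 22 h replicate 5 ended the 22 h call (adjusted p = 0.0538), as did leaving out the 3 libraries that stood apart (adjusted p = 0.0715).

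Timd4 and Marco, receptors for phosphatidylserine on dying cells and for bacteria and particles, varied far more between livers than the other members. Marco ranged from 1.33 to 24.2 CPM at 4 h (median 11.0), from 0.205 to 48.3 CPM at 22 h (median 10.1) and from 1.15 to 99.8 CPM in vehicle (median 4.10). Its lowest libraries were 22 h replicates 3 and 5 with 7 and 10 counts, and its highest was vehicle replicate 5 with 4091 counts. That is a span of 486-fold, with a 95% Poisson interval of the lowest count that allows 236-fold to 1209-fold and covers counting error only. Timd4 ranged from 0.679 to 9.32 CPM at 4 h (median 5.71), from 0.0592 to 14.6 CPM at 22 h (median 2.64) and from 0.797 to 32.9 CPM in vehicle (median 4.03). Its lowest library, 22 h replicate 5, had 2 counts, and the span of 555-fold has a counting interval of 154-fold to 4582-fold.

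Neither gene passed the test in any comparison, and the ranges of the 3 groups overlapped for both, with the narrowest range at 4 h. The log2 fold changes of Marco against vehicle were 0.51 at 4 h (95% interval -1.57 to 2.59) and -0.24 at 22 h (-2.51 to 2.02). Those of Timd4 were -0.52 at 4 h (-2.20 to 1.16) and -1.19 at 22 h (-3.03 to 0.65). Intervals of this width include falls as large as those of Folr2 and Csf1r as well as no change.

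Cd5l, also called AIM, encodes the secreted protein known as apoptosis inhibitor of macrophages. It ranged from 81.1 to 177 CPM at 4 h (median 105), from 28.4 to 181 CPM at 22 h (median 95.1) and from 77.3 to 352 CPM in vehicle (median 152). The lowest vehicle value was in replicate 1, the library with Ucp1 RNA. Cd5l was lower at 22 h, with a log2 fold change of -0.92 ± 0.32 (adjusted p = 0.0272, limma-voom), and stood at -0.47 ± 0.32 at 4 h (adjusted p = 0.246). Without vehicle replicate 1 and 22 h replicates 6 and 7, the 4 h value of -0.60 passed the test (adjusted p = 0.0334) and the 22 h value of -0.61 did not (adjusted p = 0.0624). The 22 h call was also lost without 22 h replicate 6, 22 h replicate 7, vehicle replicate 3 or vehicle replicate 5 alone, with adjusted p up to 0.0689.

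Counted over the members, 4 of 10 were lower and none was higher at 4 h, where 44.2% of all genes tested were called, 22.5% lower and 21.7% higher. At 22 h 8 of 10 were lower and none was higher, against 36.8% called over all genes, 19.2% lower and 17.6% higher. The median log2 fold change of the members was -0.57 at 4 h, beside -0.07 over all genes, and -1.06 at 22 h, beside -0.02. Without the 3 libraries that stood apart, 6 of 10 members were lower at 4 h, where 24% of genes were lower, and 6 of 10 at 22 h, where 15.3% were. The medians were then -0.62 at 4 h and -0.74 at 22 h.

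Within mice 1 to 12 alone, 3 members were called at 4 h (C1qa, C1qb and C1qc) and 4 at 22 h (those and Folr2). Each of these was lower, and 25% and 10.6% of all genes were called in either direction. In this set 8 of 10 log2 fold changes at 4 h were below 0. Their median was -0.42, and the highest was 1.62, for Marco. Within mice 13 to 24 alone, none was called at 4 h, although all 10 log2 fold changes were below 0 with a median of -0.75 and adjusted p from 0.0549 upwards by limma-voom, against 27.4% of all genes called. At 22 h 8 were called in that set, which holds 22 h replicates 6 and 7, all of them lower, against 28.1% of all genes called in either direction. The median log2 fold change was -1.57, against -0.61 in mice 1 to 12. With the set of mice as a term over all livers, 5 members were called at 4 h and 8 at 22 h, all of them lower. In that fit 44.9% and 37% of all genes were called in either direction. The shares called lower alone are not given for these fits.

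**Figure D2:**
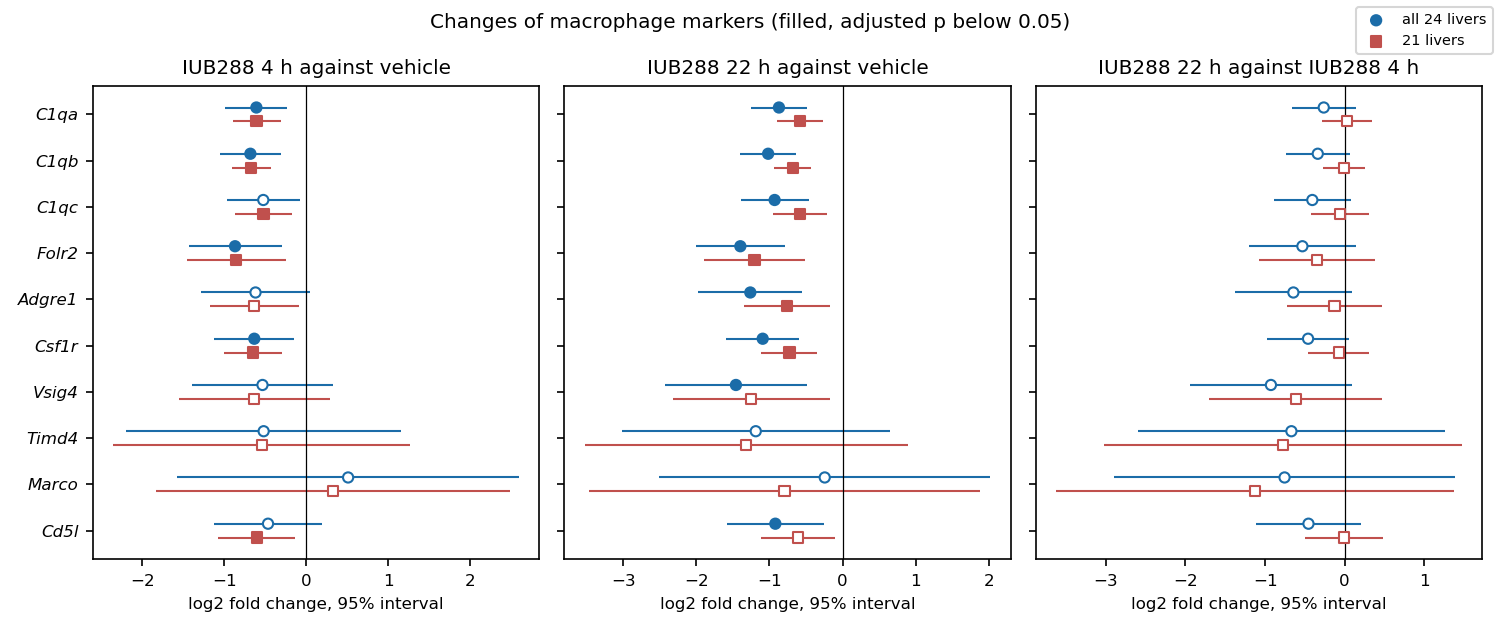
Log2 fold changes (first group over second) of the 10 markers with 95% intervals in the 3 comparisons, from all 24 livers (circles) and from 21 livers without vehicle replicate 1 and 22 h replicates 6 and 7 (squares). Filled symbols passed an adjusted p of 0.05 by limma-voom. In the comparison of 22 h with 4 h none is filled, and the values of the C1q chains, Csf1r and Cd5l move to near 0 without the 3 libraries.

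Between the IUB288 groups themselves no member passed the test, against 29.3% of all genes, 15% lower and 14.3% higher. The count was 0 at an unadjusted p below 0.05 and 0 by limma-trend, and adjusted p ran from 0.169 to 0.642 by limma-voom. All 10 log2 fold changes of 22 h over 4 h were below 0, from -0.26 for C1qa to -0.93 for Vsig4. Without the 3 libraries their median was -0.10, against -0.50 with them. The interval for C1qb was then -0.27 to 0.25, and that for Csf1r -0.46 to 0.30. For Marco it was far wider, from -3.63 to 1.38. A larger fall at 22 h than at 4 h was thus not shown for any member.

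The members varied together within groups, but not all to the same degree. As deviations from group means of log2 CPM over 24 livers, the C1q chains, Csf1r, Adgre1 and Cd5l had Pearson correlations of 0.861 to 0.962 among themselves over 15 pairs. Folr2, Vsig4, Timd4 and Marco had 0.752 to 0.916 over 6 pairs, with Marco and Timd4 the closest. Between these sets the 24 correlations ran from 0.149 (C1qb with Marco) to 0.733. The sets were drawn up after the values had been seen, and the points share library, depth and scaling. Without the 3 libraries that stood apart, the ranges were 0.762 to 0.925, 0.870 to 0.936 and 0.576 to 0.857, and C1qb with Marco reached 0.576. Without vehicle replicate 5 alone, C1qb with Marco stood at 0.033 and the correlations between the sets ran from 0.033 to 0.702. Without vehicle replicate 5 and the 3 libraries together, C1qb with Marco stood at 0.455. Correlations between the sets then ran from 0.455 to 0.861, and those within them from 0.657 to 0.897 and from 0.854 to 0.936. The sets were thus less distinct without 22 h replicates 6 and 7 and vehicle replicate 1.

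**Figure D3:**
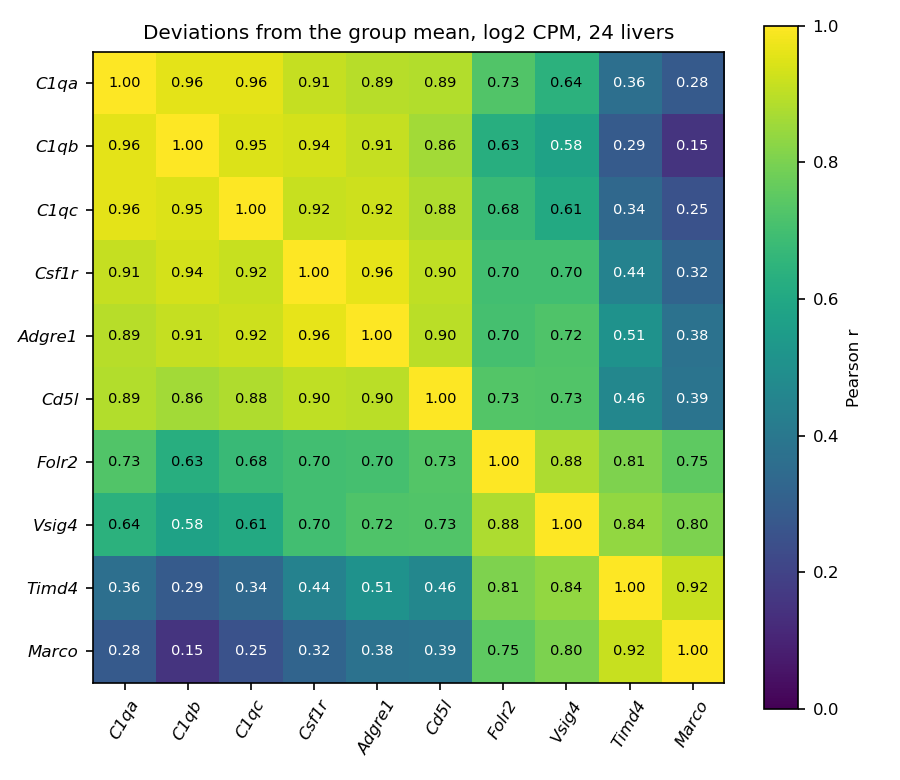
Pearson correlations between the 10 markers as deviations from group means of log2 CPM over 24 livers, on a colour scale from 0 to 1. The C1q chains, Csf1r, Adgre1 and Cd5l form a block at 0.861 or above at the upper left, and Marco shows its lowest value, 0.149, with C1qb.

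In 22 h replicates 6 and 7 the C1q chains, Adgre1, Csf1r and Cd5l were the lowest of all 24 livers. Marco, with 12.4 and 10.8 CPM, lay in the middle of its group there, close to the median of 10.1 CPM. Folr2, with 2.57 and 2.36 CPM, and Vsig4, with 8.46 and 4.36 CPM, lay below their group medians of 3.50 and 16.2 CPM there. Timd4, with 3.39 and 1.75 CPM, lay on either side of its median of 2.64 CPM. In 22 h replicates 3 and 5 Marco had 0.205 and 0.296 CPM beside a C1q sum of 79.6 and 63.98 CPM. Marco RNA as a share of the summed C1q chains therefore ran from 1.61% to 28.7% at 4 h, from 0.258% to 44.2% at 22 h and from 0.842% to 50.3% in vehicle. The share for Csf1r stayed within 43.8% to 60.5% at 4 h, 39.0% to 59.02% at 22 h and 37.5% to 64.5% in vehicle. All 10 members were highest in replicate 1 among the livers at 4 h, in replicate 1 among those at 22 h and in replicate 5 among vehicle livers.

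**Figure D4:**
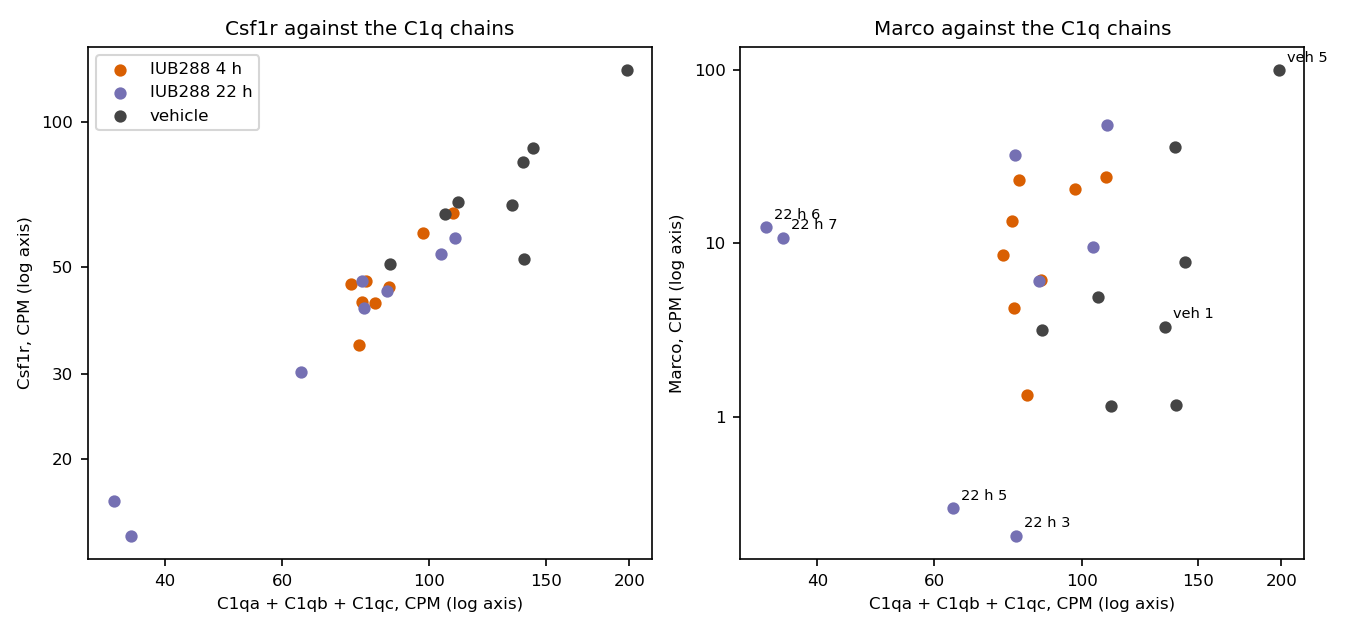
Csf1r (left) and Marco (right) CPM against the sum of C1qa, C1qb and C1qc CPM, all on log axes, 1 point per liver. Csf1r follows the C1q sum in all groups, while Marco differs widely between livers of like C1q sum, such as 22 h replicates 2 (32.3 CPM) and 3 (0.205 CPM), whose C1q sums were 79.3 and 79.6 CPM.

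The genes outside the members whose deviations over the 24 livers were most like the members' mean were Wfdc17, Cd86, Cd300ld, Siglec1, Pilra, Epb41l3, Cfp, Kctd12, Rims3 and Ncf1. Their Pearson correlations ran from 0.919 to 0.859 among 8943 genes compared. Siglec1, which encodes the macrophage receptor sialoadhesin, averaged 10.8 CPM at 4 h, 7.83 CPM at 22 h and 16.9 CPM in vehicle. It was lower in both comparisons with vehicle, with log2 fold changes of -0.63 (adjusted p = 0.0322, limma-voom) at 4 h and -1.20 (adjusted p = 0.00075) at 22 h. Cfp, which encodes properdin of the alternative complement pathway, averaged 13.9 CPM at 4 h, 10.2 CPM at 22 h and 20.7 CPM in vehicle and passed the test at 22 h (log2 fold change -1.04, adjusted p = 0.00276). Cfp, Cd300ld and Pilra missed the threshold at 4 h and were lower at 22 h, and Epb41l3 and Rims3 passed the test in neither comparison. Wfdc17, Cd86, Kctd12 and Ncf1 were lower in both.

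Of 17 general macrophage genes tested, 6 were lower at 4 h, where 22.5% of all genes were lower, and 13 at 22 h, where 19.2% were, and none was higher. The other 11 did not pass the test at 4 h. Fcgr1 and Fcgr3, receptors for antibody, had log2 fold changes of -0.90 and -0.59 at 4 h and of -1.28 and -0.92 at 22 h. Of 7 further Kupffer cell markers tested, 1 was lower and 1 higher at 4 h, and 3 were lower and 1 higher at 22 h. The shares of all genes that were higher were 21.7% at 4 h and 17.6% at 22 h. Hmox1, which encodes the heme-degrading enzyme heme oxygenase 1, was the one that rose at 4 h, to 64.99 ± 13.8 CPM in IUB288 livers against 37.7 ± 7.04 CPM in vehicle livers (SD, n = 8 each, adjusted p = 0.00239, limma-voom). Mrc1, the mannose receptor, averaged 67.6 CPM at 22 h and 125 CPM in vehicle (adjusted p = 0.00146). Clec4f, Clec1b, Cd163, Slc40a1 and Clec4n from the same list had no row under these symbols in the count table, so they were not analysed here. Of 11 genes of monocytes and recruited macrophages, 3 were lower at 4 h and 3 at 22 h, among them Ccr2, the chemokine receptor of recruited monocytes, with 12.4 and 12.2 CPM against 19.2 CPM in vehicle.

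Of 12 macrophage growth factor and transcription factor genes, 5 were lower and 1 higher at 4 h, and 7 were lower and 1 higher at 22 h. Over all genes, 22.5% were lower and 21.7% higher at 4 h, and 19.2% and 17.6% at 22 h. Spi1, the gene of PU.1, averaged 5.03 ± 0.44 CPM at 4 h, 4.77 ± 1.62 CPM at 22 h and 8.18 ± 3.72 CPM in vehicle (SD, n = 8 each). Its log2 fold changes were -0.69 at 4 h (adjusted p = 0.0109, limma-voom) and -0.83 at 22 h (adjusted p = 0.00446).

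Of 12 scavenger and apoptotic cell receptor genes, 3 were lower and 1 higher at 4 h, and 8 were lower at 22 h. For this and the next 2 lists, the shares over all genes were 22.5% lower and 21.7% higher at 4 h. At 22 h they were 19.2% and 17.6%. Mfge8, which encodes a bridging protein between dying cells and phagocytes, averaged 13.6 CPM at 4 h, 11.5 CPM at 22 h and 28.1 CPM in vehicle (adjusted p = 0.000934 and 0.000154, limma-voom). Among 9 genes of classical complement outside C1q, 3 were lower and 2 higher at 4 h, and 4 were lower and 3 higher at 22 h. C1s1 and C1ra, the proteases that join C1q in the C1 complex, were lower at both times, C1s1 with log2 fold changes of -0.75 and -0.72 and C1ra with -0.43 and -0.32. C3, which the pathway cleaves further down, was higher, by 0.65 at 4 h and 0.89 at 22 h on the log2 scale. Of 9 targets of the nuclear receptor LXR, 5 were lower at 4 h, and 6 were lower and 1 higher at 22 h. They include genes of lipid synthesis, such as Scd1, that hepatocytes also express.

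Of 12 macrophage cytokine and inflammatory genes, 3 were lower at 4 h, and 2 were lower and 3 higher at 22 h. Over all genes tested, 22.5% were lower and 21.7% higher at 4 h, and 19.2% and 17.6% at 22 h. Of the 12 log2 fold changes at 4 h, 11 were below 0, and the medians were -0.38 at 4 h and -0.48 at 22 h. Without the 3 libraries that stood apart, these medians were -0.04 and 0.10. The list's summed RNA was 438 CPM in vehicle replicate 1, against 105 to 131 CPM in 6 other vehicle livers. Cxcl1, a neutrophil-attracting chemokine, averaged 4.62 ± 2.14 CPM at 4 h, 24.3 ± 11.3 CPM at 22 h and 12.7 ± 6.12 CPM in vehicle (SD, n = 8 each). Its log2 fold changes against vehicle were -1.48 at 4 h (adjusted p = 0.0022, limma-voom) and 0.89 at 22 h (adjusted p = 0.0112). The summed RNA of 9 neutrophil genes ranged from 2.04 to 4.91 CPM at 4 h, from 1.49 to 6.54 CPM at 22 h and from 2.80 to 35.2 CPM in vehicle, with the highest value in vehicle replicate 1.

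Markers of other non-parenchymal cells also moved, and those of endothelial and of stellate cells and fibroblasts had more calls at 22 h than at 4 h. Of 13 endothelial markers, 4 were lower at 4 h, where 22.5% of all genes were, and all 13 at 22 h, where 19.2% of all genes were. Their median log2 fold changes were -0.30 and -0.73. Their summed RNA ranged from 515 to 603 CPM at 4 h, from 245 to 576 CPM at 22 h and from 485 to 853 CPM in vehicle. Of 12 stellate cell and fibroblast markers, 6 were lower at 4 h and 11 at 22 h, with medians of -0.63 and -1.08 and summed ranges of 497 to 827 CPM at 4 h, 266 to 757 CPM at 22 h and 840 to 1387 CPM in vehicle. Of 9 dendritic cell and antigen presentation genes, 6 were lower at each time, and of 12 lymphocyte genes, 5 at each time. Of 5 fat genes tested, 3 were lower and 1 higher at 4 h, and 4 were lower at 22 h. The shares of all genes that were higher were 21.7% at 4 h and 17.6% at 22 h. Among 10 hepatocyte genes 4 were lower and 5 higher at each time, and their summed RNA ranged from 65849 to 95324 CPM at 4 h, from 48828 to 80832 CPM at 22 h and from 69562 to 109920 CPM in vehicle. The part of these other cell types in the member results was not tested.

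**Figure D5:**
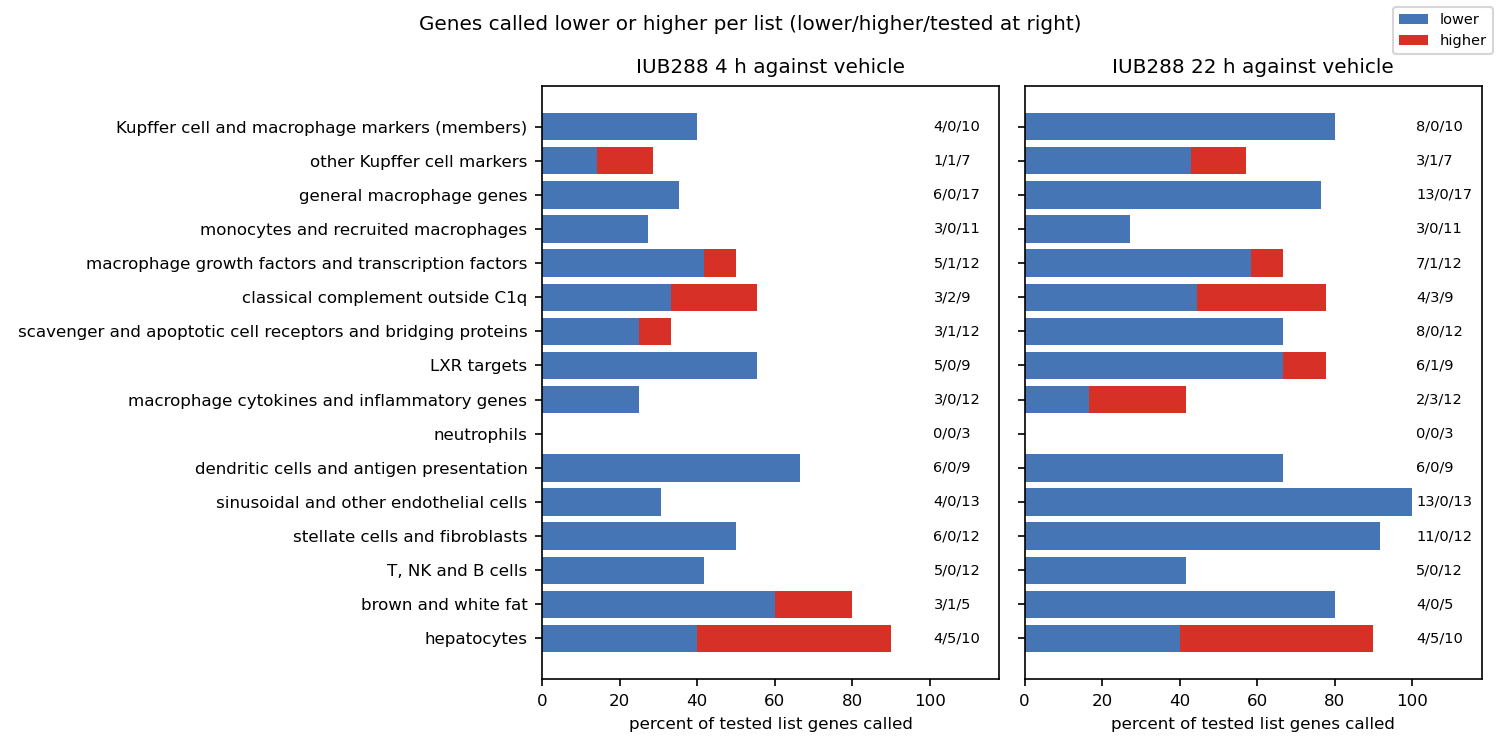
Percent of the tested genes of each list that were lower (blue) or higher (red) by limma-voom at adjusted p below 0.05, for IUB288 at 4 h and at 22 h against vehicle, with the numbers lower, higher and tested at the right of each bar. All 13 endothelial markers and 8 of 10 members are lower at 22 h.

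Without the 3 libraries that stood apart, 7 of 13 endothelial markers were lower at 4 h and 12 at 22 h, and 8 of 12 stellate cell and fibroblast markers at 4 h and 11 at 22 h. Over all genes, 24% were then lower at 4 h and 15.3% at 22 h, out of 47.4% and 30.5% called in either direction. The median log2 fold changes of the endothelial markers were then -0.31 at 4 h and -0.49 at 22 h. Those of the stellate cell and fibroblast markers were -0.60 and -0.59. The general macrophage genes then numbered 11 lower of 17 at 4 h and 10 at 22 h. Lymphocyte genes were lower for 6 of 12 at 4 h and for 1 of 12 at 22 h, and of the cytokine genes 3 were lower at 4 h, and 1 was lower and 5 higher at 22 h. Of the 7 further Kupffer cell markers, 3 were lower and 1 higher at 4 h, and 3 were lower at 22 h. Scavenger and apoptotic cell receptor genes were lower for 9 of 12 at 4 h and 8 at 22 h, growth factor and transcription factor genes for 6 of 12 at 4 h and 5 at 22 h, and genes of monocytes and recruited macrophages for 3 of 11 at 4 h, where 2 were higher, and 2 at 22 h.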

How the data were processed

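Liver RNA of 24 mice, 8 per group, had been sequenced from frozen tissue with the miRNeasy Mini Kit and the KAPA mRNA HyperPrep kit, per the labels' protocols. The submitters' processing notes name cutadapt, a read trimmer, GSNAP, a read aligner, and the build GRCm38. No source used here gives tool versions, the counting tool, the annotation or whether strand was used. The authors deposited raw counts per gene, and the 536520 values of the table were whole numbers of at least 0. The table's genes are part of the genome, and absent genes were not analysed here.

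Tests used limma-voom (R 4.3.3, limma 3.58.1) after a filter on low counts (the CPM of about 10 counts in a median library reached in as many libraries as a group holds, and at least 15 counts in total), which kept 11508 genes with 99.9% of counts. Scaling was TMM with trims of 30% and 5%, the voom offset was 0.5, and all 3 groups entered a single fit (21 residual degrees of freedom, 4.08 prior). Within each comparison Benjamini-Hochberg adjustment ran over the 11508 genes, and calls were made at 0.05. A count test by another tool had been planned, but an automated unit check did not accept the table's quoted layout as counts, so limma-voom, planned as an alternative, took its place. The procedure was tested on simulated data. Per-kilobase levels used union exon lengths from GENCODE vM21, and sequences came from RefSeq (GRCm38.p6).

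The 10 members and the 16 gene lists were chosen with earlier results of these data known. From the other lists, genes with the smallest p were named, at most 4 per list and comparison and with at least 1 CPM in 1 group. Lists share some genes, such as Mrc1. Genes of like pattern were the 10 with the highest correlation among those of at least 1 CPM on average. For 84 within-group pairs of libraries, chi-square per degree of freedom was 21.0 to 358, so none were copies of each other. A result on 1 list gene is not reported here.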

Additional observations from a re-analysis of the deposited data

Results flagged for a closer look

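In 5 of 30 combinations of a member and a group, 1 liver lay far from the other 7 by Dixon's criterion for 8 samples, the gap to the nearest liver over the range, where chance gives about 1 in 20 groups for normal values. The combinations share livers and are not independent. Vehicle replicate 5 accounted for 4 of them. It held 64.8 CPM of C1qb (next 47.3), 111 CPM of Adgre1 (next 52.1), 32.9 CPM of Timd4 (next 13.4) and 99.8 CPM of Marco (next 35.9). The other was 4 h replicate 1 with 47.4 CPM of Adgre1 (next 29.99). On the log2 scale the 4 ratios of vehicle replicate 5 were 0.482 for C1qb, 0.496 for Adgre1, 0.242 for Timd4 and 0.229 for Marco, all under the critical value, and that of 4 h replicate 1 was 0.646, still above it. Without vehicle replicate 5, 3 members were called at 4 h and 7 at 22 h, all of them lower. In that fit 41.1% of all genes were called at 4 h in either direction. With all 24 libraries 36.8% of all genes were called at 22 h in either direction. The shares called lower with all 24 libraries were 22.5% at 4 h and 19.2% at 22 h. The summed endothelial and stellate cell markers of vehicle replicate 5, at 771 and 888 CPM, lay within the range of the other vehicle livers, as did its fat markers at 124 CPM. Its summed general macrophage genes (1390 CPM) and further Kupffer cell markers (383 CPM) were the highest of the vehicle livers. So were its classical complement genes outside C1q (12210 CPM), whereas its LXR targets (30572 CPM) were the lowest. Most of these last 2 sums is RNA of C3 and of Scd1. In vehicle livers C3 averaged 7239 CPM beside a median sum of 9428 CPM, and Scd1 33247 CPM beside 49728 CPM.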

How the results depend on the processing

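Each of 30 combinations of a member and a comparison was recomputed under 37 other settings, 24 of which left out 1 library. DESeq2, the edgeR test planned as the main one and its robust form were not run, and limma-trend and robust empirical Bayes were added after the data were seen. Leaving out 1 library gave 3 to 5 members lower at 4 h, 7 to 8 at 22 h and 0 at 22 h against 4 h. Genes called in either direction over the whole table then numbered 4743 to 5253, 3846 to 4281 and 3081 to 3724. C1qa, C1qb, C1qc and Folr2 stayed lower at 22 h under all 37 settings. C1qc at 4 h passed the test without any 1 of 8 libraries (4 h replicate 1, 22 h replicates 1, 6, 7 and 8, vehicle replicates 6, 7 and 8). With mice 13 to 24 alone, 0 members were called at 4 h and 3166 genes in all, and with mice 1 to 12 alone 4 members at 22 h, with 2908 genes at 4 h, 1229 at 22 h and 1473 at 22 h against 4 h; fewer livers entered these fits. No setting called a member at 22 h against 4 h.

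Some values changed sign without passing the test. Timd4 at 4 h was 0.0841 with the replicate block and 0.70 in mice 1 to 12, and Marco at 4 h was -0.67 in mice 13 to 24. Marco at 22 h was 0.51 with the replicate block, 0.37 in mice 1 to 12, 0.46 and 0.38 without 22 h replicates 3 and 5, and 0.09 and 0.46 without vehicle replicates 4 and 5. At 22 h against 4 h, C1qa was 0.0269 without the 3 libraries that stood apart, Timd4 0.0498 without 22 h replicate 5 and Cd5l 0.00845 in mice 1 to 12. Over the fits that left out 1 library, Marco at 22 h ran from -0.72 to 0.46 and Timd4 at 22 h against 4 h from -1.1 to 0.0498. The causes were not tested.

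The replicate block called 5 members at 4 h, 8 at 22 h and 0 at 22 h against 4 h, and 5425, 4388 and 3433 genes. Equal replicate numbers did not pair livers: correlations ran from -0.219 to 0.134, above 0.1 in 2 of 24 pairs, and 5 livers matched their own number best. Counts of 2 to 10 limit the lowest Timd4 and Marco values.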
